A study of Mus musculus with 12 samples.

Results

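The 10 genes described here build and load MHC class I, the surface complex that shows peptides from inside the cell to CD8+ T cells. They are B2m, H2-K1, H2-D1, Psmb8, Psmb9, Psmb10, Tap1, Tap2, Tapbp and Nlrc5, chosen by name from 30165 genes counted in oligodendrocyte precursor cells (OPCs) and 17918 genes counted in neurons. All 10 were present in both tables and passed the filter on low counts, a mean normalized count of at least 10. RNA sequencing compared ctl mice, labelled wild type (WT), with double knockout (dKO) mice that lack the L-type calcium channels Cav1.2 and Cav1.3 in OPCs, which asked what this loss does to OPCs and to neighbouring neurons. In dKO mice NG2-CreERT2, a tamoxifen-inducible recombinase driven from the NG2 (Cspg4) locus, deleted the floxed channel genes Cacna1c and Cacna1d. The deletion was induced in the early postnatal period, and NG2 is also made by pericytes of the vessel wall. Which of these alleles ctl mice carried, and the age at collection, are not given in the sources used here. Cells from 2 mice were pooled for each library, and each of the 4 groups had 3 libraries, 12 in all. Whether OPCs and neurons came from the same mice is not stated, but the sex-linked reads given below show that not all did.

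OPCs were collected from cortex on magnetic beads against CD140, NG2 and O4, and neurons as the unbound cells after depletion with O4, CD11b, CD31 and ACSA-2 beads. Total counts per library were 14935963 to 19812274 in OPCs and 15052892 to 16344601 in neurons. Marker lists did not match the labels closely. In the libraries labelled neurons, 16 endothelial markers summed to 16267 to 35385 CPM (counts scaled to a common library size) and 14 neuron markers to 859 to 1925 CPM. In the libraries labelled OPCs, 12 oligodendrocyte markers summed to 50255 to 86799 CPM and 12 OPC markers to 1662 to 3299 CPM. These libraries are therefore called the neuron fraction and the OPC fraction below, and a level in either is that of a mixture. Fewer cells of a type and less RNA per cell cannot be told apart in such bulk samples. The targeted genes were lower in dKO libraries of the OPC fraction by log2 fold changes of -0.44 ± 0.15 (SE) for Cacna1c and -0.55 ± 0.31 for Cacna1d, neither with an adjusted p under 0.05 (edgeR quasi-likelihood test, 0.349 and 0.531). The OPC library dKO replicate 2 stood apart, with 13595 normalized Xist counts and 0 from Y-linked Ddx3y, the reverse of the other 5. In the neuron fraction, ctl replicate 1 and dKO replicate 1 held 3147 and 2524 Ddx3y counts, and the other 4 libraries 0 to 14.2. The ctl libraries of the OPC fraction held 2302 to 2502, and its dKO replicates 1 and 3 held 2141 and 2456. The pools of the fractions therefore cannot all have been of the same mice, and the fractions differed in sex make-up.

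Class I molecules are made of a heavy chain, here H2-K1 or H2-D1, and the light chain beta-2 microglobulin (B2m). Their peptides are cut by proteasomes, in which interferon can replace the standard catalytic subunits Psmb6, Psmb7 and Psmb5 with Psmb9, Psmb10 and Psmb8 to form the immunoproteasome. Tap1 and Tap2 pump the peptides into the endoplasmic reticulum, Tapbp (tapasin) holds an empty class I molecule beside them, and Nlrc5 is the transactivator of class I promoters. In healthy brain, class I is most abundant on endothelial cells and microglia and is low in most neurons and oligodendrocyte lineage cells until interferon signalling raises it.

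The genes lie close together. In the deposited coordinates, for which the labels name mm39 and the methods GRCm38, 7 of the 10 are on chromosome 17 within 1.35 Mb. B2m is on chromosome 2 (121978167 to 121983564), and Psmb10 (106662367 to 106665076) and Nlrc5 (95160984 to 95253900) are on chromosome 8. Psmb9 (34400961 to 34406738, minus strand) and Tap1 (34406527 to 34416199, plus strand) overlap by 212 bases at their starts, and with no strand stated for the counting their reads in that stretch cannot be told apart.

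The promoter sequences of the light chain, both heavy chains and the Psmb9 and Tap1 pair are shown because these genes had among the highest levels or largest differences described below. They come from RefSeq (GRCm38.p6), which had an entry for 8 of the 10 genes and none for Tap2 and Nlrc5, and hold the 250 bases before each transcript start, written 5′ to 3′ along the gene's own strand. Capitals mark an interferon regulatory factor core, AANNGAAA on either strand, and a cyclic AMP response element half-site, TGACG on either strand. The windows are chr2:122147437-122147686 (plus strand) for B2m, chr17:34000348-34000597 (minus) for H2-K1, chr17:35262844-35263093 (plus) for H2-D1 and chr17:34187306-34187555 (plus) for Tap1.
B2m: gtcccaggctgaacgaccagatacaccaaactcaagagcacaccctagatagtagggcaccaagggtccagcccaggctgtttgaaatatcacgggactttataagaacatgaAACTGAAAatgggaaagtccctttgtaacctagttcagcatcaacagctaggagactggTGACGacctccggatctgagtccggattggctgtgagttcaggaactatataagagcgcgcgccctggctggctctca
H2-K1: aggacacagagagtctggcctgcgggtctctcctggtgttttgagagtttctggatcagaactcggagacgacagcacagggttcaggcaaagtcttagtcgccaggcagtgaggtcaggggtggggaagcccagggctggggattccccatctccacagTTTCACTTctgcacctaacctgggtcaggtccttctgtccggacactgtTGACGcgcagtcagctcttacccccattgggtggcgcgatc
H2-D1: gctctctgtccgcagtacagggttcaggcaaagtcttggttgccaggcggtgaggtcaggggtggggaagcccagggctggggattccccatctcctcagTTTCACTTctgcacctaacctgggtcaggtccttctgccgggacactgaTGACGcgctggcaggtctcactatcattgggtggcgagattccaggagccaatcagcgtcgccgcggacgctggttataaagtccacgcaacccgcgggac
Tap1: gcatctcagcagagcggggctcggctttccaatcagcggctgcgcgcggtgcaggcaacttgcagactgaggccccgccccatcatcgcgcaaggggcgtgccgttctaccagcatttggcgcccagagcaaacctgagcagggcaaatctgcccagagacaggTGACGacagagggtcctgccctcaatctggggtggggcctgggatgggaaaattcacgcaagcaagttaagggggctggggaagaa
The interferon regulatory factor core was found in 3 of the 8 members with a window, B2m, H2-K1 and H2-D1, with its first base 137, 90 and 150 bases before the start, and in 21.3% of 32851 RefSeq promoter windows of the same length. RefSeq also gave H2-K1 a second start, with the core 104 bases before it, and that window is not printed. Counted by window, 4 of the members' 9 windows held the core. The half-site TGACG was found in 5 members, against 17.8% of all windows, and CCAAT, the NF-Y box, in 6, against 33.8%. The interferon gamma element TTCNNNGAA was found in 1, Psmb8, against 7.02%. All motifs were searched on both strands, and a match is a run of letters, not a site of binding. The H2-K1 and H2-D1 windows are near copies, with 166 identical bases of 190 aligned (87.4%) and a longest shared run of 47 bases. Psmb9 and Tap1 start 226 bases apart on opposite strands, so the sequence printed for Tap1 holds 225 of the 250 bases of the Psmb9 window read from the other strand.

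In the neuron fraction, all 10 genes were lower in dKO mice, by 1.57-fold to 3.30-fold, and for all 10 every dKO library lay under every ctl library. Of all 14352 genes tested, 48.9% had a log2 fold change under 0 and 51.1% above it, while 7.82% lay lower and 7.5% higher without overlap. An unadjusted p under 0.05 (edgeR quasi-likelihood test) was found for 10 of 10, each lower, against 9% of all genes, 4.04% lower and 4.96% higher. The p-values were 0.00192 to 0.00820 and ranked between 34 and 200 among all genes. After Benjamini-Hochberg adjustment over all genes, 0 genes passed (0%), members included, with 1292 genes at an unadjusted p under 0.05 and 88 genes (0.613%) passing with DESeq2. The adjusted edgeR p was 0.521 for each of the 10 members. DESeq2 gave an adjusted p under 0.05 for 7 of them, from 0.00962 for Tap1 to 0.0250 for Psmb9, and 0.117, 0.127 and 0.159 for Tap2, Tapbp and Psmb10. Over all the alternatives run, the members' adjusted p ranged from 0.00962 to 0.870. P-values here measure the spread between pooled libraries, and an exact permutation test of 3 against 3 cannot go below 0.1.

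**Figure D1:**
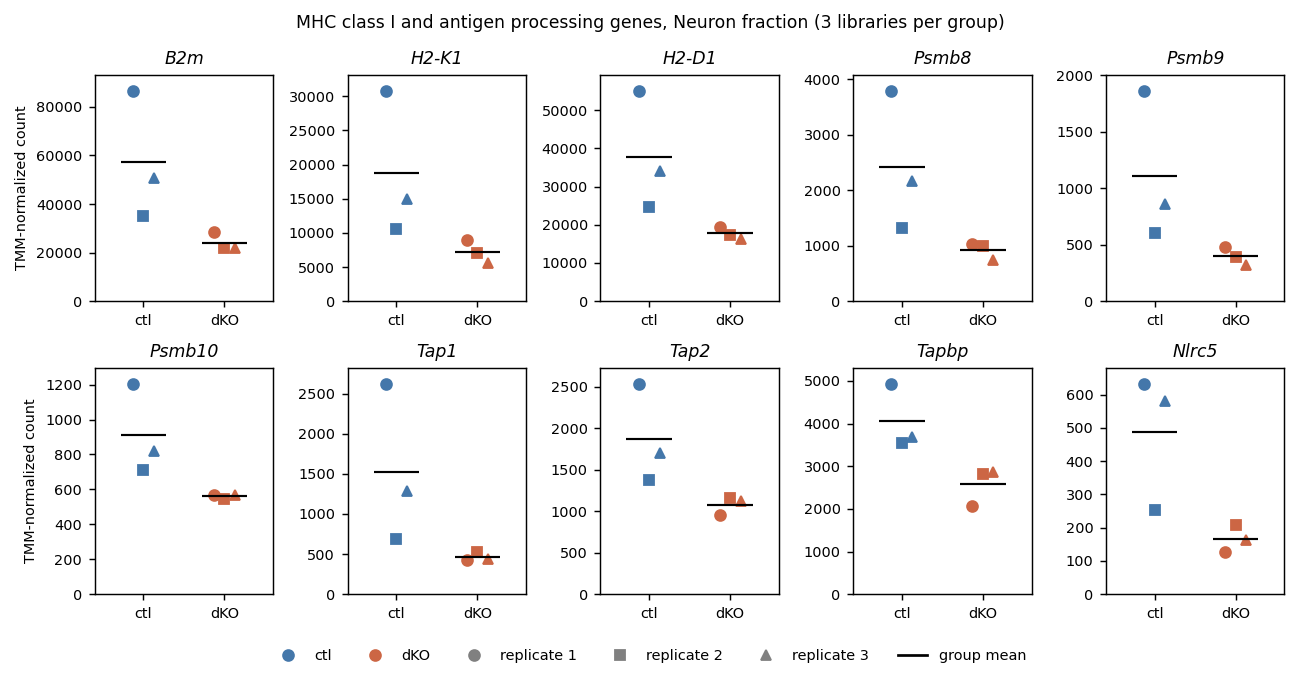
Normalized counts (TMM, linear axes from 0) of the 10 genes in the 6 libraries of the neuron fraction, with 1 point per library, shapes for replicate numbers and a line at each group mean. In every panel the 3 ctl libraries lie above the 3 dKO libraries, and ctl replicate 1 is the highest.

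Among the surface components, B2m had normalized counts of 86425, 35126 and 50761 in ctl replicates 1, 2 and 3 and 28512, 22009.7 and 21758 in the dKO replicates. The dKO libraries were close together and the ctl libraries spread widely, with replicate 1 on top. The log2 fold change was -1.25 ± 0.32 (SE), or 2.38-fold lower. H2-K1, a classical heavy chain, had 30730.4, 10638 and 14939.6 counts in ctl and 9008, 7002 and 5629 in dKO libraries, which gives a log2 fold change of -1.38 ± 0.38. H2-D1, the other classical heavy chain of this strain background, had 54902, 24513 and 34015 against 19525, 17343 and 16309.5, a log2 fold change of -1.09 ± 0.28. Both heavy chains thus showed the same order of ctl libraries as B2m, with no overlap between the groups. H2-D1 shares 4.64% of its 100-base words with other genes, mostly H2-Q1, Gm7030 and H2-T23, whereas H2-K1 shares none, so reads of a part of H2-D1 may be split. Summed over 15 class I heavy chain genes, which depends less on that split, the log2 fold change was -1.21 ± 0.33 (edgeR adjusted p = 0.524), and H2-K1 and H2-D1 supplied 81.2% to 84.4% of that sum in each library.

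The immunoproteasome subunits differed by unequal amounts. Psmb8 had 3781, 1326 and 2171 counts in ctl libraries and 1023, 1001 and 745 in dKO libraries, for a log2 fold change of -1.39 ± 0.34. Psmb9 had 1859.6, 601 and 863 against 477, 396 and 316, a log2 fold change of -1.48 ± 0.39. For Psmb10 the counts were 1201, 709 and 819.7 against 569, 544 and 565, a log2 fold change of -0.70 ± 0.20. The dKO values of Psmb10 were almost equal, and its lowest ctl library stood above all of them. The constitutive counterparts had small positive values instead. Psmb5 had a log2 fold change of 0.04 ± 0.16, Psmb6 of 0.15 ± 0.14 and Psmb7 of 0.14 ± 0.15, with overlapping groups for each.

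On the FPKM scale, which corrects for gene length, the immunoproteasome form was a smaller share of each pair in dKO libraries of the neuron fraction. Psmb8 made up 62.3%, 40.5% and 53.3% of the FPKM of Psmb8 and Psmb5 in ctl libraries and 28.8%, 33.5% and 29.1% in dKO libraries. Psmb9 made up 32.1% ± 11.2 (SD, n = 3) of the pair with Psmb6 in ctl and 14.1% ± 2.36 in dKO libraries, and Psmb10 made up 28.2% ± 4.53 of the pair with Psmb7 in ctl and 18.4% ± 1.95 in dKO libraries. The groups did not overlap for any of these 3 shares. Each had an exact two-sided permutation p of 0.1, the smallest this design allows, or 0.2 after Benjamini-Hochberg adjustment over the 6 shares compared.

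The transporter subunits were also unequal. Tap1 had 2615, 685 and 1286 normalized counts in ctl and 429, 524 and 436 in dKO libraries, for a log2 fold change of -1.72 ± 0.42 or 3.30-fold lower, the largest of the 10. Tap2 had 2527, 1374 and 1702 against 958, 1156 and 1123, a log2 fold change of -0.79 ± 0.22. Both separated the groups, though the Tap1 value of ctl replicate 2 lay near the dKO libraries. Tapbp had the smallest difference, with 4921, 3554 and 3681 counts against 2065, 2808 and 2860.2 and a log2 fold change of -0.65 ± 0.19. Nlrc5 had 631, 254 and 581 counts in ctl and 128, 209 and 162 in dKO libraries, for a log2 fold change of -1.55 ± 0.35 and the smallest p of the 10. For Nlrc5, ctl replicates 1 and 3 were both high, and ctl replicate 2 was the closest to the dKO libraries. Nlrc5 is on a list of neuron genes that the study drew from these same libraries. B2m, H2-K1 and a gene printed as Psm8, which may be Psmb8, are among its examples too, so the direction of these genes is not independent evidence.

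A single library weighed on the size of these differences. Replicate 1 was the highest ctl library and replicate 2 the lowest for 10 of 10 members in the neuron fraction. Without ctl replicate 1, the median log2 fold change of the 10 members went from -1.32 to -0.83, with values from -1.32 for Nlrc5 to -0.45 for Psmb10, and 10 of 10 kept an unadjusted p under 0.05 (edgeR). Over all genes, 780 were past that threshold in this fit, against 1292 with all libraries. The median over all genes tested was 0.01. With a term for Y-linked reads the median of the members was -1.22, and among the 4 libraries with few Y-linked reads it was -0.99.

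In the OPC fraction the same genes were close to the ctl level or somewhat higher in dKO mice. Of the 10, 9 had a positive log2 fold change, as did 50.8% of all 17364 genes tested, with 49.2% negative, and the members' median was 0.44 against 0.01 over all genes. An unadjusted p under 0.05 (edgeR quasi-likelihood test) was found for 4 members, B2m, H2-D1, Psmb10 and Tap2, against 11.5% of all genes, 6.27% higher and 5.27% lower. Adjusted over all genes, 1 gene (0.00576%) passed, which was no member, and the members' adjusted p ran from 0.395 to 0.925. DESeq2 called 299 genes (1.72%) and 0 members. The 3 dKO libraries all lay above the ctl libraries for 1 member, Psmb10, where 7.41% of all genes did so and 9.55% lay lower without overlap. The count of 4 was 0 without ctl replicate 1, ctl replicate 2, dKO replicate 1 or dKO replicate 3, and was 6 without dKO replicate 2. Without dKO replicate 3 the members' median went from 0.44 to 0.26, with H2-K1 at 0.16, H2-D1 at 0.26, B2m at 0.35, Tapbp at 0.12, Psmb8 at 0.26, Psmb9 at 0.31 and Tap1 at 0.25. Without ctl replicate 2 it was 0.33, with Tap1 at 0.19, Tapbp at 0.20 and Psmb9 at 0.37.

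**Figure D2:**
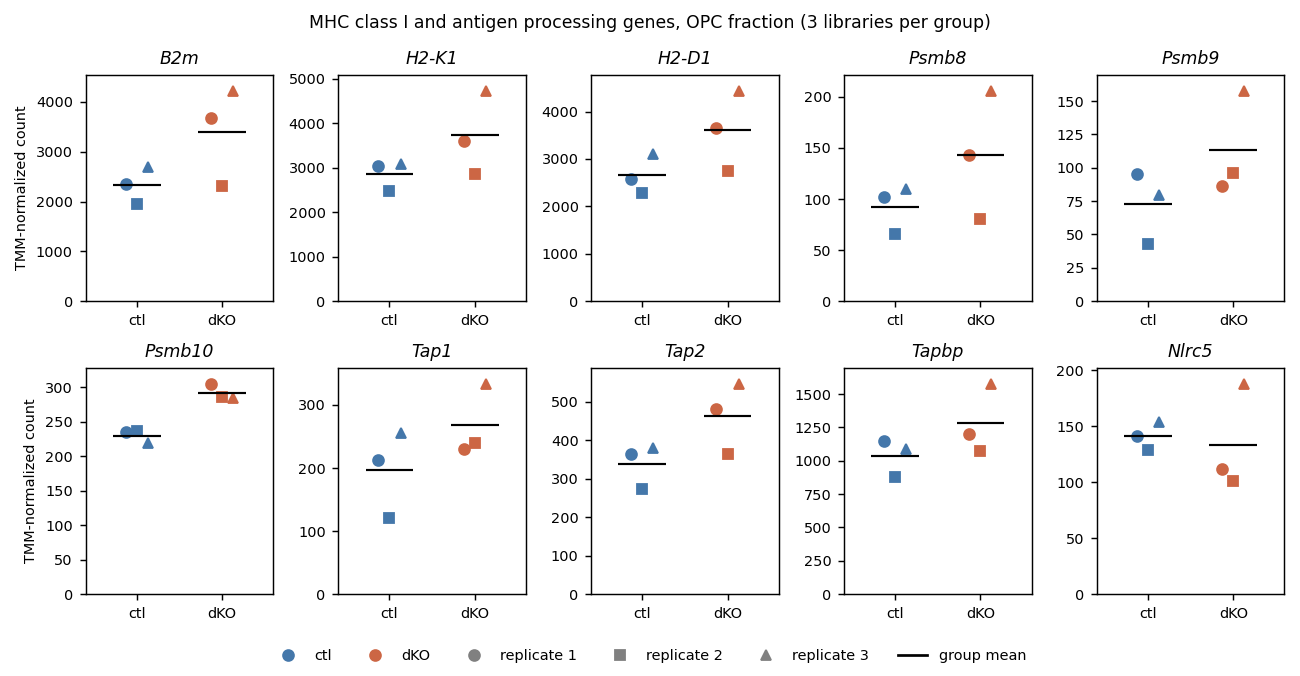
Normalized counts (TMM, linear axes from 0) of the 10 genes in the 6 libraries of the OPC fraction, with 1 point per library, shapes for replicate numbers and a line at each group mean. The groups overlap in every panel except Psmb10, and dKO replicate 3 is the highest library for 9 of the 10 genes.

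B2m had 2357, 1954 and 2686 normalized counts in ctl libraries of the OPC fraction and 3676, 2309 and 4211 in dKO libraries, with a log2 fold change of 0.54 ± 0.22 (edgeR adjusted p = 0.411). H2-K1 had 3048, 2481 and 3084 against 3613, 2865 and 4721, a log2 fold change of 0.38 ± 0.19, and H2-D1 had 2586, 2273 and 3099 against 3646, 2748 and 4427, a log2 fold change of 0.44 ± 0.19. In all 3 genes dKO replicates 1 and 3 lay above the ctl libraries and dKO replicate 2 among them. Summed over 18 class I heavy chain genes the log2 fold change was 0.37 ± 0.20 (edgeR adjusted p = 0.518).

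Psmb8 was sparse in this fraction, with 101, 65.5 and 109.7 normalized counts in ctl and 143, 80.8 and 205 in dKO libraries, for a log2 fold change of 0.62 ± 0.35. Psmb8, like B2m, H2-D1 and Tap2, is among the OPC genes that the study lists from these libraries, which is no independent evidence of direction. Psmb9 had 95.4, 42.9 and 79.4 counts against 86.0, 96.2 and 157, a log2 fold change of 0.63 ± 0.35. The groups overlapped for both. Psmb10 had 235, 236 and 218 counts in ctl and 304, 285 and 283 in dKO libraries, with a log2 fold change of 0.34 ± 0.13 (edgeR adjusted p = 0.395). Its libraries were tight within each group, and no dKO library reached down to the ctl values. Its unadjusted edgeR call was lost when any 1 library was left out, while the log2 fold change stayed between 0.29 and 0.36. The share of the immunoproteasome form was 4.53% ± 1.11 (SD, n = 3) in ctl and 8.99% ± 4.45 in dKO libraries for Psmb8 with Psmb5, with an exact two-sided permutation p of 0.3. It was 3.05% ± 1.23 and 5.16% ± 2.26 for Psmb9 with Psmb6, and 35.4% ± 1.73 and 40.2% ± 3.46 for Psmb10 with Psmb7, each with an exact permutation p of 0.2. All 3 pairs overlapped between the groups. Psmb5 itself was lower, at 509, 518 and 521 normalized counts in ctl and 397, 437 and 348 in dKO OPC libraries (log2 fold change -0.39 ± 0.12, unadjusted p = 0.0133, adjusted 0.324 by edgeR).

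Tap1 had 213, 120.3 and 256 normalized counts in ctl and 231, 240.4 and 333 in dKO OPC libraries, a log2 fold change of 0.44 ± 0.28. Tap2 had 363, 273 and 380.3 against 482, 364 and 545, a log2 fold change of 0.45 ± 0.19. Tapbp had 1147, 879 and 1087 against 1198, 1072 and 1573, a log2 fold change of 0.30 ± 0.16. The loading genes thus overlapped between the groups, with dKO replicate 3 highest. Nlrc5 was the only member with a negative value, a log2 fold change of -0.09 ± 0.26, from 141, 129 and 154 counts in ctl and 111, 101 and 187 in dKO libraries. Its dKO libraries lay on both sides of the ctl range, and the sign turned without dKO replicate 1 (0.03) or dKO replicate 2 (0.08).

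**Figure D3:**
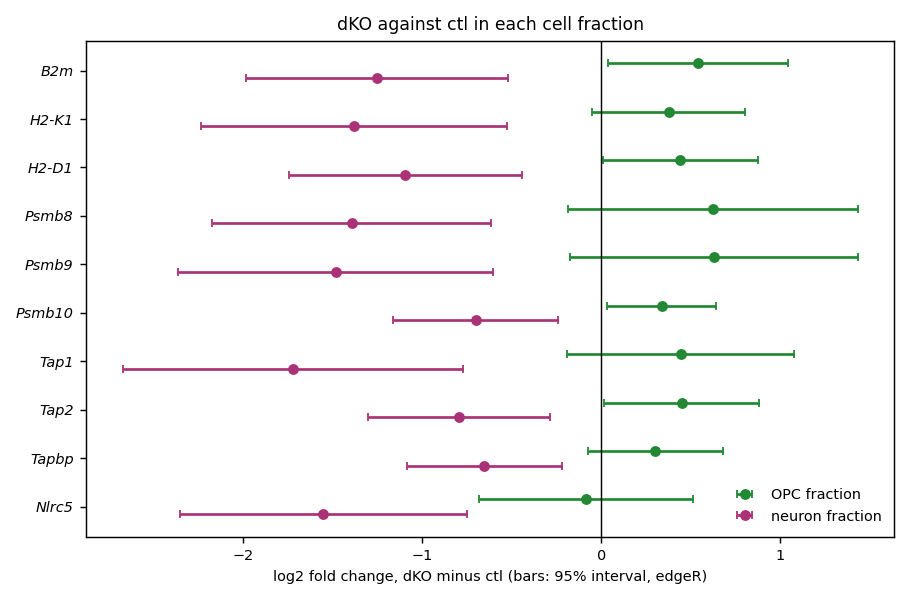
Log2 fold change of each gene, dKO minus ctl, with 95% intervals from edgeR, in the OPC fraction (green) and the neuron fraction (purple). All 10 neuron intervals lie under 0, and 4 of the 10 OPC intervals lie above it.

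The plot of fold changes sets the fractions side by side. Psmb10 was the gene whose groups separated in both, higher in dKO libraries of the OPC fraction and lower in those of the neuron fraction. Separation upward in the OPC fraction was found for 1 of 10 members and 7.41% of all genes. The tables of the fractions were counted in different ways, so the difference between them was not tested.

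Per gene length, the order of levels was led by the surface components in both fractions. In ctl libraries of the OPC fraction, B2m was at 154 ± 23.6 FPKM (SD, n = 3), H2-D1 at 58.4 ± 9.05, H2-K1 at 55.5 ± 6.16 and Tapbp at 16.2 ± 2.07. Psmb10 followed at 7.66 ± 0.339 FPKM, Tap2 at 5.09 ± 0.837, Tap1 at 2.03 ± 0.711, Psmb8 at 1.55 ± 0.387, Psmb9 at 1.12 ± 0.409 and Nlrc5 at 0.943 ± 0.0802. Neighbours whose ctl libraries overlapped were H2-D1 and H2-K1, Tap1 and Psmb8, Psmb8 and Psmb9, and Psmb9 and Nlrc5. B2m lay at the 99.1 percentile of the genes tested and Nlrc5 at the 20.7 percentile.

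In ctl libraries of the neuron fraction, the FPKM was 5849 ± 2822 for B2m, 1595 ± 691 for H2-D1 and 826 ± 487 for H2-K1, with H2-K1 at the 99.7 percentile and the other two above it. The next were Psmb8 at 156 ± 83.6 FPKM, Psmb9 at 111 ± 68.8, Tapbp at 102 ± 21.5, Psmb10 at 55.6 ± 17.1, Tap2 at 52.4 ± 17.8, Tap1 at 35.8 ± 23.9 and Nlrc5 at 4.23 ± 1.79. Ranges of the ctl libraries overlapped for H2-D1 and H2-K1, Psmb8 and Psmb9, Psmb9 and Tapbp, Psmb10 and Tap2, and Tap2 and Tap1. The place of Psmb8 and Psmb9 differed between the fractions, at the 29.4 and 23.8 percentile in the OPC fraction and at the 96.0 and 93.8 percentile in the neuron fraction. Absolute FPKM values were not compared between the tables, which were made in different ways.

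**Figure D4:**
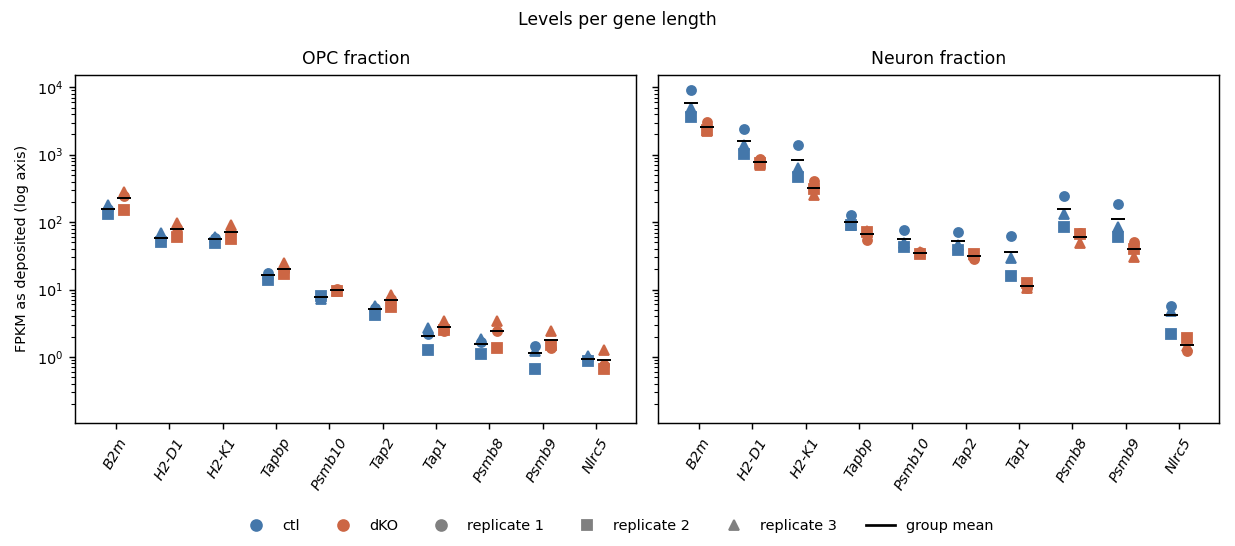
FPKM as deposited (log axis; summed over a gene's transcripts in the neuron fraction) of the 10 genes in each library, with a line at each group mean, in the order of the ctl mean in the OPC fraction. B2m is highest and Nlrc5 lowest among the ctl means of both fractions, and Psmb8 and Psmb9 stand far higher in the order in the neuron fraction.

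The other genes of the pathway were taken from fixed lists. Of 12 other class I heavy chain genes tested in the neuron fraction, 11 were lower in dKO mice, 9 with an unadjusted p under 0.05 (4.04% of all genes were lower at that threshold and 4.96% higher), and the median log2 fold change was -1.07. H2-T22 was at -1.11 ± 0.26 and H2-T23, which presents signal peptides of other class I chains, at -1.03 ± 0.27. H2-Q6 was at -2.60 ± 0.72 but overlapped between the groups. The exception was Cd1d1, which presents lipids rather than peptides, at 0.57 ± 0.22, higher in all 3 dKO libraries. Of 15 genes of peptide loading and trimming, 2 were lower at an unadjusted p under 0.05, Erap1, the aminopeptidase that trims class I peptides (-0.83 ± 0.20), and Tapbpl (-0.63 ± 0.23), and 1 was higher, the cytosolic aminopeptidase Npepps (0.32 ± 0.13). The median of that list was -0.11. Of 14 constitutive 20S proteasome genes 0 had an unadjusted p under 0.05, with a median of -0.04, and of 10 activator and assembly genes 1 did, Psme2 of the interferon-inducible PA28 cap (-0.46 ± 0.17), a count near the 9% of all genes past that threshold. No gene of these lists passed the adjusted threshold in edgeR, and DESeq2 values of the list genes are not given here.

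Among 26 regulators and interferon signalling genes in the neuron fraction, 20 were lower, 5 of them at an unadjusted p under 0.05 (4.04% of all genes) and 4 without overlap (7.82%), with a median log2 fold change of -0.12. Irf1, a transcription factor of class I genes, was at -0.96 ± 0.24. Of 30 interferon-stimulated genes, 29 were lower, 23 of them at an unadjusted p under 0.05 and 19 without overlap, with a median of -0.85. Ifi35 was at -0.61 ± 0.13, and Ifit3 and Ifi44 were both at -0.95 ± 0.21. All 8 class II genes were lower, with a median of -1.01, 0 of them at an unadjusted p under 0.05.

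In the OPC fraction, 11 of 13 other class I heavy chain genes were higher, 1 at an unadjusted p under 0.05, H2-T22 (0.42 ± 0.16), and the median log2 fold change was 0.12. Of all genes in this fraction 11.5% were past that threshold, 6.27% higher and 5.27% lower, and the counts that follow are to be read against these shares. Peptide loading had 0 of 15 genes past that threshold, and the activator and assembly list 0 of 10. Of the 14 constitutive 20S genes 1 was past it, Psmb5, which was lower. Irf8, Irf1, Ifngr2 and Ifngr1 were the 4 of 26 regulators past it, all higher, with Irf8, a factor of microglia and macrophages, at 1.32 ± 0.42 and Irf1 at 0.45 ± 0.15. Among 31 interferon-stimulated genes 3 were past it, Ifit3 (0.68 ± 0.18), Irgm1 (0.69 ± 0.26) and Oas1a (0.92 ± 0.36), all higher, with a list median of 0.28. That share lies between the 6.27% of all genes that were higher and the 11.5% past the threshold in either direction. All 8 class II genes were higher, 5 at an unadjusted p under 0.05 and without overlap, with a median of 1.55.

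Marker lists of the cell types a fraction could hold were set beside the members. Over all genes of the neuron fraction, 4.04% were lower and 4.96% higher at an unadjusted p under 0.05, and 7.82% lower and 7.5% higher without overlap, and list counts such as 1 of 20 or 1 of 12 below are near those shares. In the neuron fraction the 16 endothelial markers were all lower in dKO mice, 4 at an unadjusted p under 0.05 and 12 without overlap, with a median log2 fold change of -0.43 and sums of 31378 to 35385 CPM in ctl and 16267 to 27965 CPM in dKO libraries. The 20 microglia markers were all lower, 1 at an unadjusted p under 0.05 and 0 without overlap, with a median of -0.71 and sums of 649 to 2827 CPM in ctl and 679 to 1569 CPM in dKO libraries. Blood leukocyte markers were lower for 15 of 18, with a median of -0.78 and sums of 211 to 672 CPM against 125 to 423 CPM. Oligodendrocyte markers were lower for 12 of 12, 1 at an unadjusted p under 0.05 and 1 without overlap, with a median of -0.88 and sums of 796 to 4217 CPM in ctl and 1221 to 2038 CPM in dKO libraries. Border macrophage markers were lower for 7 of 8, with a median of -0.87, and OPC markers for 9 of 12, with a median of -0.57. Astrocyte markers were lower for 8 of 10, with a median of -0.39, and mural cell markers for 4 of 9, with a median of 0.01. Neuron markers went the other way, higher for 12 of 14, 2 at an unadjusted p under 0.05 and 2 without overlap, with a median of 0.53 and sums of 859 to 1255 CPM in ctl and 1234 to 1925 CPM in dKO libraries. The microglia, leukocyte and oligodendrocyte sums overlapped between the groups, while the endothelial sums did not. The members themselves summed to 5046 to 12143 CPM in ctl and 3196 to 4015 CPM in dKO libraries. In ctl replicate 1 the microglia (2827 CPM), oligodendrocyte (4217 CPM), astrocyte (1184 CPM), border macrophage (30.1 CPM), OPC marker (276 CPM), interferon-stimulated (7775 CPM) and class II (285 CPM) sums were the highest of the 6 libraries, as the members' sum was. The neuron marker sum (859 CPM) was the lowest there, while the endothelial sum (33885 CPM) lay between those of the other ctl libraries.

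In the OPC fraction, where 6.27% of all genes were higher and 5.27% lower at an unadjusted p under 0.05 and 7.41% and 9.55% without overlap, all 20 microglia markers were higher in dKO mice, each at an unadjusted p under 0.05 and 11 without overlap, with a median log2 fold change of 1.30. Their sums were 383, 362 and 444 CPM in ctl and 1106, 474 and 1445 CPM in dKO libraries, and dKO replicates 1 and 3 were also the libraries with the highest sums of the members (772 and 952 CPM), of endothelial markers (4498 and 5643 CPM) and of interferon-stimulated genes (561 and 594 CPM). Endothelial markers were all higher, 1 of 16 at an unadjusted p under 0.05, with sums of 2425 to 3452 CPM in ctl and 2052 to 5643 CPM in dKO libraries. Astrocyte markers were higher for 10 of 10, 8 at an unadjusted p under 0.05 and 5 without overlap, with a median of 1.09. Their sums were 1197 to 2016 CPM in ctl and 1925 to 5627 CPM in dKO libraries. Oligodendrocyte markers were lower for 10 of 12, 4 at an unadjusted p under 0.05 and 4 without overlap, with a median of -0.43. Their sums were 68162 to 80561 CPM in ctl and 50255 to 86799 CPM in dKO libraries. Border macrophage markers were higher for 7 of 8, 3 at an unadjusted p under 0.05 and 3 without overlap, with a median of 0.64 and sums of 23.8 to 24.8 CPM in ctl and 33.4 to 49.0 CPM in dKO libraries. Mural cell markers were higher for 8 of 9, 0 at an unadjusted p under 0.05, with sums of 794 to 1132 CPM in ctl and 713 to 1459 CPM in dKO libraries, highest in dKO replicates 1 and 3. OPC markers were higher for 9 of 12, with a median of 0.51, and neuron markers for 12 of 13, with a median of 0.39. No marker present in the counts of a fraction was at 0 in all its libraries, but the counts of the neuron fraction held only 18 of the 19 listed blood leukocyte markers. The part of these cells in the members' differences was not tested.

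**Figure D5:**
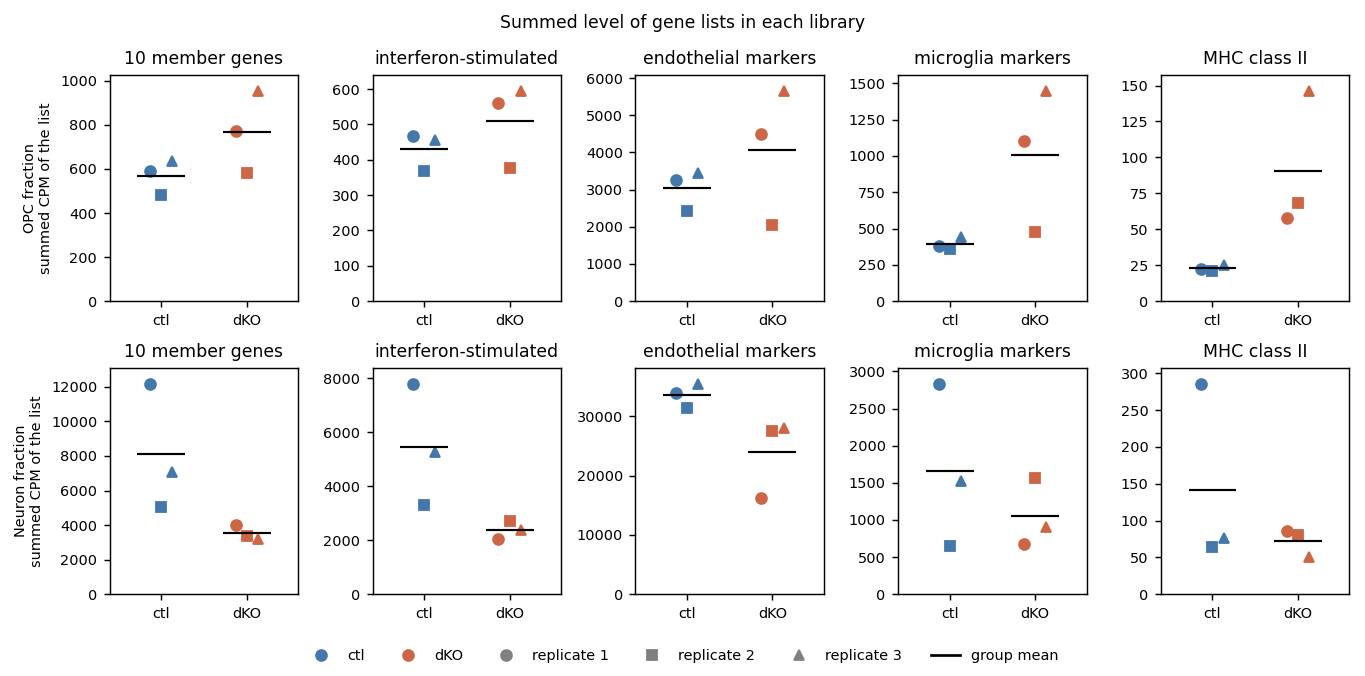
Summed CPM (linear axes from 0) of the 10 members, the interferon-stimulated genes, endothelial markers, microglia markers and class II genes in each library, OPC fraction above and neuron fraction below, with a line at each group mean. In the OPC fraction dKO replicates 1 and 3 are highest for the members, the interferon-stimulated genes, the endothelial markers and the microglia markers, and in the neuron fraction ctl replicate 1 is highest for the members and for every list shown except the endothelial markers.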

How the data were processed

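Poly(A) RNA was sequenced from 12 libraries, 3 each of ctl and dKO OPCs and neurons, grouped by their titles. The OPC table that the authors deposited holds raw counts and FPKM per gene, made with HISAT2 and featureCounts according to their methods. The neuron table holds estimated counts and FPKM per transcript as deposited by the authors. The methods state featureCounts for every sample without splitting by cell type, but name no program for estimated counts per transcript. Its 66298 transcripts were summed per gene and rounded, and symbols were found for 17794 genes in the RefSeq GRCm38.p6 table, leaving 0.0441% of the counts unnamed. The deposited columns of fold changes and p-values were not used.

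Genotypes were compared within each cell type by the quasi-likelihood test of edgeR 4.0.16 in R 4.3.3, after TMM normalization and a filter at a mean normalized count of 10. Genotype was the only term, and p-values were adjusted over all genes tested by Benjamini-Hochberg at 0.05. DESeq2 1.42.0, its size factors, no filter, a replicate block and each library left out were the alternatives, and the fits that use Y-linked reads were added after seeing the data. Replicates differed beyond sampling noise (chi-square per gene of at least 15.9). Tested on simulated data with a log2 fold change of 2, the OPC fit called 189 of 200 changed genes and 12 unchanged ones, and the neuron fit called 184 of 198 and 13. The members' log2 fold changes were smaller, -0.09 to 0.63 in the OPC fraction and -1.72 to -0.65 in the neuron fraction. The simulation therefore does not show how often changes of the members' size would be called. The members and gene lists were chosen with earlier results of these data known. By rule, the text names the members, Psmb5, Psmb6, Psmb7, Cacna1c, Cacna1d and up to 3 genes per list, those of smallest p. Cd1d1, H2-Q6, Ifngr1, Xist and Ddx3y were picked out after seeing their values.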

Additional observations from a re-analysis of the deposited data

Results flagged for a closer look

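Psmb10, an immunoproteasome subunit, had a log2 fold change of 0.34 in the OPC fraction and -0.70 in the neuron fraction. Every dKO library lay above every ctl library in the one and below every ctl library in the other, which is why it is listed here. Of all genes tested, 7.41% separated upward in the OPC fraction and 7.82% downward in the neuron fraction, so the separation of 1 of 10 members in the OPC fraction is near the background. The difference between the fractions was not tested, since their counts were made in different ways.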

How the results depend on the processing

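In the OPC fraction, the 1 gene past the adjusted threshold in edgeR became 299 with DESeq2, 87 without the filter on low counts and 1 to 199 with a library left out. The genes at an unadjusted p under 0.05 numbered 1106 to 2292 with a library left out, the members among them 0 to 6, and the members lower in dKO mice 0 to 1. The log2 fold change of Nlrc5 there ranged from -0.42 to 0.080 with a library left out and turned positive without dKO replicate 1 (0.026) or dKO replicate 2 (0.080). In the neuron fraction, DESeq2 called 88 genes where edgeR called 0, and 780 to 1581 genes had an unadjusted p under 0.05 with a library left out, against 1292 with all libraries. All 10 members stayed lower with an unadjusted p under 0.05 in each neuron fit run. The causes were not tested.

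Correlations of same-numbered deviations were -0.15, 0.19 and 0.17 in the OPC fraction and 0.17, -0.04 and -0.05 in the neuron fraction. They gave no clear sign that replicate numbers pair the libraries, but so few values cannot exclude it. Replicate 1 was also the library rich in Y-linked reads in both genotypes of the neuron fraction. With the replicate number as a block, 27 genes passed in the OPC fraction. The members at an unadjusted p under 0.05 were then 6 there and 10 in the neuron fraction, with medians of 0.44 and -1.21, but Psmb10 in the OPC fraction was not among the 6 (unadjusted edgeR p of 0.0709). Over all genes, 2025 in the OPC fraction and 1285 in the neuron fraction were past that threshold with the block. Levels as CPM per kilobase were not run in the neuron fraction, whose table gives no gene length used here. The lowest mean counts of any member were those of Psmb8, Psmb9 and Nlrc5 in the OPC fraction, 42.9 to 205 normalized counts per library.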
